A study of Homo sapiens with 9 samples.

Results

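The matrix metalloproteinases (MMPs) MMP1, MMP2, MMP3, MMP9, MMP10, MMP13 and MMP14 and the tissue inhibitors of metalloproteinases TIMP1, TIMP2 and TIMP3 were examined in SNU-398, an established hepatocellular carcinoma (HCC) line. These 10 genes were taken by gene name from the 60642 gene names listed in the RNA-seq tables, and 8 of them had enough counts to be tested. MMP1 was chosen by its measured level, which was higher in EMX1-FL than in EMX1-X1 cells, so its values are given as a description and carry no test. The other 9 were added as members of the same enzyme and inhibitor families. The cells had been transduced with lentivirus, selected as stable lines with puromycin in all groups, and grown in RPMI1640 with fetal bovine serum. The groups were wild-type SNU-398 with the vector control, SNU-398 overexpressing EMX1-FL and SNU-398 overexpressing EMX1-X1, with 3 libraries each. EMX1 is a homeobox transcription factor, EMX1-FL is its full-length form, and EMX1-X1 is a splice form with another terminal exon and so another C-terminal end. A legend of the paper that covers RNA-seq of these lines among other assays speaks of biological replicates, but neither it nor the labels say that the 3 libraries of a group came from separate cultures, so p-values measure the spread between these libraries. Whether a line was a clone or a pool is not stated in the sources used here. The comparison of the isoforms bears on the study's interest in cell migration and invasion.

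MMPs are zinc-dependent endopeptidases that cut proteins of the extracellular matrix, and most are secreted as inactive proenzymes. The collagenases MMP1 and MMP13 open fibrillar collagen, the stromelysins MMP3 and MMP10 cut many matrix proteins and can activate other proenzymes, and the gelatinases MMP2 and MMP9 cut denatured collagen and basement membrane collagen. MMP14 is anchored in the plasma membrane, where it cuts collagen and, together with TIMP2, activates pro-MMP2. TIMPs bind the active site of MMPs and block it. In the liver these enzymes are best known from the remodelling of scar matrix and from the invasion of tumour cells.

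The 7 MMPs share the catalytic zinc site, and the stretch of 33 coding bases that encodes it is shown to make the relation between the members visible (GENCODE 29, GRCh38, 5′ to 3′ on the coding strand). Capitals mark the codons of the 3 zinc-binding histidines.
MMP1: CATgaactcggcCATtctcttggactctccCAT
MMP10: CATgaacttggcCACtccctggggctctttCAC
MMP3: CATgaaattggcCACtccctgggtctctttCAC
MMP14: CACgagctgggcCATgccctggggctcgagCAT
MMP13: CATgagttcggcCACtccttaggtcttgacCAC
MMP9: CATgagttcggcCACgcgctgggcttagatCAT
MMP2: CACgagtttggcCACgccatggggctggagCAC
MMP1 carries this stretch at chr11:102795549-102795581, in exon 5 of 10 on the minus strand. MMP10 was identical to MMP1 at 25 of the 33 bases, MMP3 at 24, MMP14 at 23, MMP13 at 22, MMP9 at 21 and MMP2 at 18. Over whole transcripts the members were still distinct enough to count apart, since of all runs of 31 bases in the transcripts of the 10 genes only MMP3 and MMP10 shared any. They shared 125 runs, 7.12% of those of MMP10 and 6.11% of those of MMP3, so a small part of their counts could be split or lost.

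The count table places MMP1 at chr11:102789919-102798160, on the minus strand (GRCh38, Ensembl 99). Reads were counted without strand, and 150 of the 1971 exon bases of MMP1 are shared with WTAPP1, an antisense gene, where read pairs falling in both genes were left uncounted. WTAPP1 itself had a log2 fold change of 0.74 (SE 0.50) in EMX1-FL and 0.77 (SE 0.50) in EMX1-X1 against the vector control, with adjusted p = 0.997 and 0.678 (edgeR). MMP9 shares 430 of its 2336 exon bases with SLC12A5-AS1, MMP2 shares 174 of 4706 with AC007336.3, and TIMP2 shares 565 of 5633 with AC022966.2 and CEP295NL. Exons of MMP10, MMP13, MMP14, TIMP1 and TIMP3 overlap no other listed gene.

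The libraries held 21562703 to 25197970 counts. EMX1 stood at 218 to 313 counts in the vector control, 3145 to 5660 in EMX1-FL and 3479 to 7133 in EMX1-X1, a log2 fold change of 4.04 (SE 0.34, adjusted p = 0.00121) and 4.50 (SE 0.35, adjusted p = 0.00047, edgeR). Counts per gene do not tell the isoforms apart. The first principal component, 39.6% of the variance, split the libraries within groups: vector control 1 and 2, EMX1-FL 2 and 3 and EMX1-X1 1 lay on one side (cluster A), and vector control 3, EMX1-FL 1 and EMX1-X1 2 and 3 on the other (cluster B). EMX1 differed between the clusters too. It had 5660, 7083 and 7133 counts in EMX1-FL 1 and EMX1-X1 2 and 3 (cluster B). In EMX1-FL 2 and 3 and EMX1-X1 1 (cluster A) it had 3202, 3145 and 3479. Whether the EMX1 level has a part in the clusters was not tested. Results are therefore also given within each cluster, where a group can have 1 library. Of 8 hepatocyte markers only ALB, which encodes albumin, passed the filter, at 10 to 53 counts per library, and AFP, TTR and FGB were at 0 in all 9. The hepatocyte markers summed to 0.563 to 1.04 TPM in the vector control, 1.91 to 3.40 in EMX1-FL and 1.14 to 2.61 in EMX1-X1. The labelled cell type thus lacked most of these 8 defining markers. A2M, a plasma protein also made by hepatocytes and here on the list of protease inhibitors, was present at 28.9 to 49.0 TPM over the 9 libraries. All 5 mesenchymal markers passed the filter, with a sum of 783 to 1026 TPM in the vector control, 944 to 1223 in EMX1-FL and 832 to 923 in EMX1-X1. Most of each sum was VIM, which encodes vimentin, with group means of 846, 961 and 782 TPM. ZEB1, also on that list, was low, with means of 0.384, 0.945 and 0.573 TPM. Of the 5 epithelial markers 2 passed the filter and the sum was 4.52 to 9.97 TPM over the 9 libraries. None of the 4 leukocyte and macrophage or 3 endothelial markers passed, and their sums stayed at or below 0.419 and 0.3 TPM. KRT18 and CD68 are listed at 0 in every library. Of the exon bases of CD68, 85.6% are shared with other genes, so its zeros say little. KRT18 shares 17.1% of its exon bases, with KRT8, and the reason for its zeros was not tested. In bulk RNA, fewer cells of a type and less RNA per cell cannot be told apart.

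**Figure D1:**
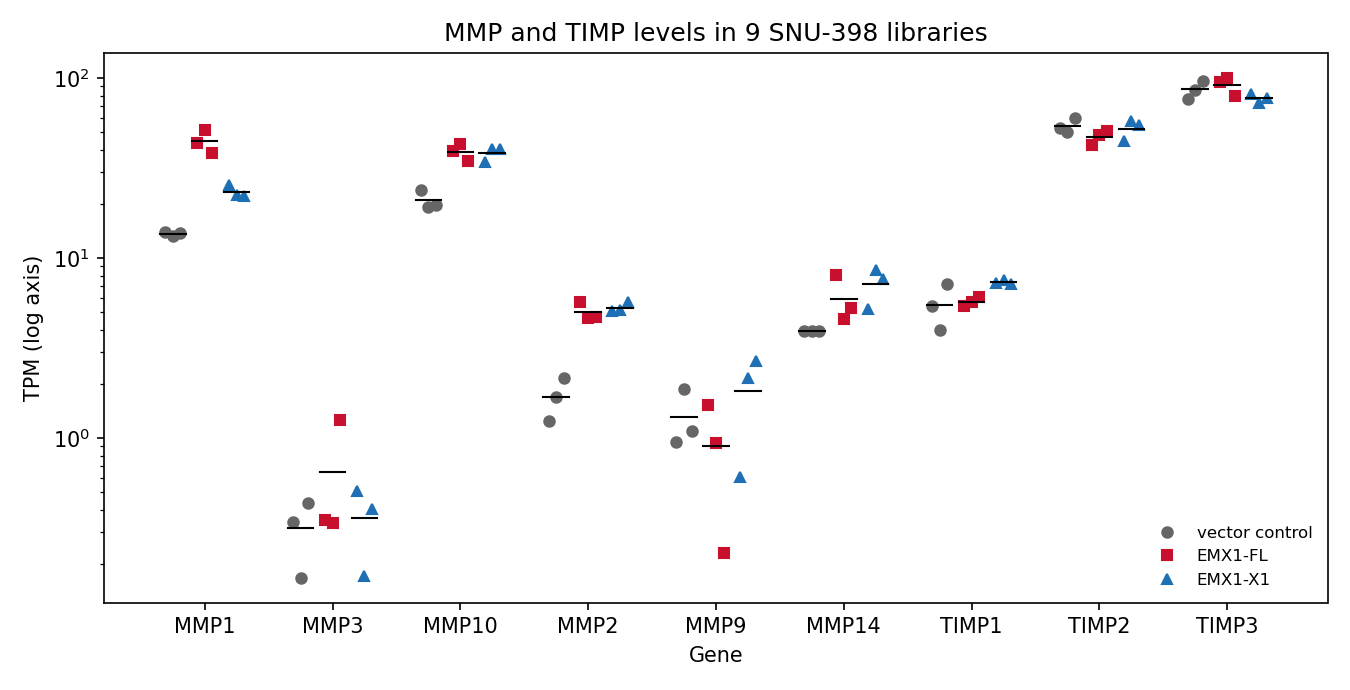
TPM of 9 of the 10 genes in each library on a log axis, with grey circles for the vector control, red squares for EMX1-FL, blue triangles for EMX1-X1 and a black line at each group mean. MMP13, at 0 in 7 of the 9 libraries, is left out; the MMP1 points of EMX1-FL lie between 38.5 and 51.2 TPM, above the 22.1 to 25.6 of EMX1-X1 and the 13.20 to 13.96 of the vector control.

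Levels are compared between genes in TPM, transcripts per 1000000 transcripts, which corrects for gene length. In the vector control the inhibitors TIMP3 (86.5 ± 9.92 TPM, SD, n = 3) and TIMP2 (54.5 ± 5.28) stood highest. MMP10 (21.0 ± 2.65) and MMP1 (13.6 ± 0.399) followed, then TIMP1 (5.51 ± 1.59), MMP14 (3.92 ± 0.00587), MMP2 (1.70 ± 0.460), MMP9 (1.30 ± 0.492) and MMP3 (0.315 ± 0.136). Neighbours in this order did not overlap between libraries except MMP2 and MMP9, whose ranges were 1.25 to 2.17 and 0.953 to 1.87 TPM. In EMX1-FL, TIMP3 and TIMP2 (47.2 ± 4.07) still had the highest means, but MMP1 (44.5 ± 6.43) now came before MMP10 (38.9 ± 4.05). The range of MMP1 overlapped those of MMP10 and TIMP2, yet within every EMX1-FL library MMP1 was above MMP10. MMP14 (5.95 ± 1.83) came before TIMP1 (5.74 ± 0.335) by its mean, but these 2 overlapped. Only in EMX1-FL replicate 1 was MMP14 above TIMP1. In EMX1-X1, MMP10 (38.2 ± 3.69) stayed above MMP1 (23.3 ± 1.93) in every library.

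MMP1, interstitial collagenase, was lowest in the vector control, higher in EMX1-X1 and highest in EMX1-FL. The vector control libraries held 13.96, 13.20 and 13.77 TPM, from 173, 167 and 202 counts. The EMX1-X1 libraries held 25.56, 22.41 and 22.06 TPM, from 321, 279 and 290 counts. The EMX1-FL libraries held 43.75, 51.24 and 38.45 TPM, from 530, 645 and 423 counts. No library of one group reached the range of another. The log2 fold change, from the fit across all genes, was 1.61 (SE 0.19) for EMX1-FL and 0.67 (SE 0.19) for EMX1-X1 against the vector control, and 0.94 (SE 0.19) for EMX1-FL against EMX1-X1, or 3.05-fold, 1.59-fold and 1.92-fold. Within clusters A and B the differences in log2 CPM (counts per 1000000) were 1.64 and 1.49, 0.86 and 0.48, and 0.78 and 1.01 for the same comparisons. The EMX1-FL and EMX1-X1 comparisons use the same 3 vector control libraries, here and for every gene.

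MMP13, collagenase-3, was at 0 counts in all vector control and EMX1-X1 libraries and at 1, 0 and 2 counts in EMX1-FL. A count of 0 allows up to 3 counts, which is 0.121 to 0.139 CPM in these libraries, so no difference was detectable at this depth. It was therefore not tested.

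MMP10, stromelysin-2, stood above the vector control in every library of both overexpression groups. The vector control libraries held 24.05, 19.30 and 19.64 TPM, from 266, 218 and 257 counts. The EMX1-FL libraries held 39.22, 42.82 and 34.73 TPM, from 424, 481 and 341 counts. The EMX1-X1 libraries held 33.99, 40.59 and 40.14 TPM, from 381, 451 and 471 counts. All 6 overexpression libraries lay above the 3 controls, and EMX1-FL and EMX1-X1 overlapped. The log2 fold change was 0.80 (SE 0.18, adjusted p = 0.197) in EMX1-FL and 0.77 (SE 0.18, adjusted p = 0.378) in EMX1-X1 (edgeR), under the fold the study required. DESeq2 gave adjusted p = 0.0112 and 0.0376. EMX1-FL and EMX1-X1 differed by 0.03, with a 95% interval of -0.37 to 0.43. MMP3, stromelysin-1, had 2 to 6 counts per library in the vector control, 4 to 13 in EMX1-FL and 2 to 6 in EMX1-X1, and did not pass the filter.

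MMP2, gelatinase A, was the only member tested, besides MMP1, that passed a log2 fold change of 1. The vector control libraries held 1.25, 1.69 and 2.17 TPM, from 37, 51 and 76 counts. The EMX1-FL libraries held 5.70, 4.66 and 4.68 TPM, from 165, 140 and 123 counts. The EMX1-X1 libraries held 5.07, 5.15 and 5.67 TPM, from 152, 153 and 178 counts. Every overexpression library was above every control, and EMX1-FL and EMX1-X1 overlapped. The log2 fold change was 1.44 (SE 0.27, adjusted p = 0.0733) in EMX1-FL and 1.51 (SE 0.27, adjusted p = 0.185) in EMX1-X1 by edgeR, past the study's threshold of an unadjusted p under 0.05 in both but not past adjustment. DESeq2 gave adjusted p = 0.00033 and 0.000352. EMX1-FL minus EMX1-X1 was -0.07, with a 95% interval of -0.63 to 0.48. Within clusters A and B the differences from the vector control in log2 CPM were 1.58 and 1.2 in EMX1-FL and 1.71 and 1.09 in EMX1-X1.

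MMP9, gelatinase B, was low and uneven. The vector control libraries had 14, 28 and 19 counts, EMX1-FL had 22, 14 and 3, and EMX1-X1 had 9, 32 and 42. The groups overlapped in every comparison. The log2 fold change was -0.60 (SE 0.67) in EMX1-FL and 0.39 (SE 0.64) in EMX1-X1 against the vector control, with adjusted p = 0.997 and 0.866 (edgeR). EMX1-FL minus EMX1-X1 was -0.99 (SE 0.67, adjusted p = 0.622). Without EMX1-FL replicate 1 that difference was -1.59, and without EMX1-X1 replicate 1 it was -1.40, each past the unadjusted threshold.

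MMP14, the membrane-type enzyme that activates pro-MMP2, differed between the clusters within the overexpression groups. The vector control libraries held 3.92, 3.91 and 3.92 TPM. EMX1-FL held 8.03, 4.57 and 5.27 TPM, and EMX1-X1 held 5.21, 8.59 and 7.67 TPM. All 6 overexpression libraries were above the controls, and the 3 highest were those in cluster B, which also had the most EMX1 counts. The log2 fold change was 0.51 (SE 0.27, adjusted p = 0.956) in EMX1-FL and 0.76 (SE 0.27, adjusted p = 0.552) in EMX1-X1 (edgeR), both under the threshold. Within clusters A and B the differences in log2 CPM were 0.26 and 0.86 in EMX1-FL and 0.35 and 0.84 in EMX1-X1. The part of the clusters or of the EMX1 level in the MMP14 level was not tested.

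The inhibitors did not pass the threshold in any comparison. TIMP3, an inhibitor bound to the matrix, held 76.7, 86.1 and 96.5 TPM in the vector control, then 94.9, 100.2 and 79.6 in EMX1-FL and 81.6, 73.0 and 77.2 in EMX1-X1. Its log2 fold change was -0.02 in EMX1-FL (95% interval -0.42 to 0.38) and -0.27 in EMX1-X1 (-0.67 to 0.12). TIMP2, which inhibits MMP2 and takes part in its activation, held 52.9, 50.2 and 60.4 TPM in the vector control, then 42.8, 48.0 and 50.8 in EMX1-FL and 44.5, 57.5 and 55.1 in EMX1-X1. Its log2 fold change was -0.31 (-0.70 to 0.07) and -0.17 (-0.55 to 0.22). TIMP1 held 5.39, 3.99 and 7.16 TPM in the vector control, then 5.40, 5.74 and 6.07 in EMX1-FL and 7.27, 7.55 and 7.15 in EMX1-X1. Its log2 fold change was -0.06 (-0.69 to 0.58) and 0.29 (-0.34 to 0.92). For EMX1-FL minus EMX1-X1 the 95% intervals were -0.15 to 0.65 for TIMP3, -0.54 to 0.24 for TIMP2 and -0.98 to 0.28 for TIMP1. For TIMP1, the intervals of EMX1-X1 against the vector control and between the isoforms leave room for a change as large as that of MMP10 against the vector control. In EMX1-FL against the vector control the TIMP1 interval stops short of that size. None of the intervals leaves room for a log2 fold change of 1 in either direction in any of the TIMPs.

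**Figure D2:**
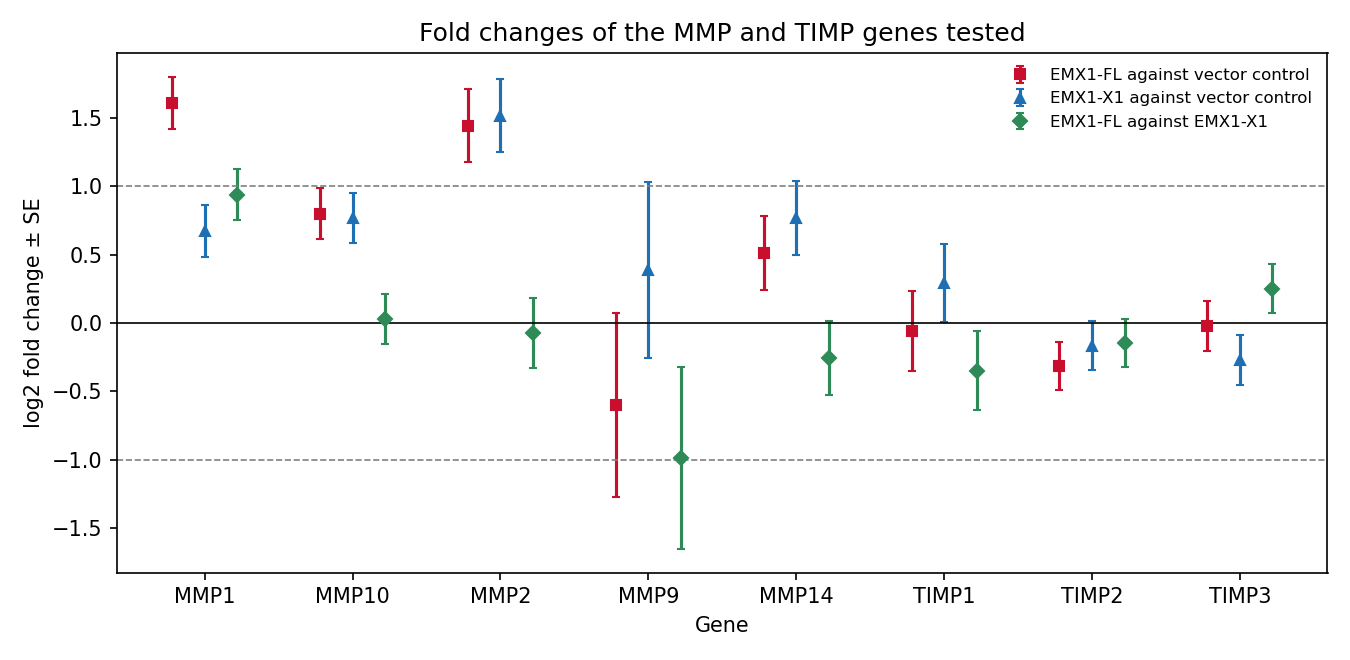
Log2 fold change with its standard error (bars) for the 8 genes tested, in red for EMX1-FL and blue for EMX1-X1 against the vector control, and in green for EMX1-FL against EMX1-X1, with dashed lines at 1 and -1. MMP2 lies at 1.44 and 1.51 against the vector control and at -0.07 between the isoforms, while MMP1, shown without a test, lies at 1.61, 0.67 and 0.94.

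Of the 7 tested members other than MMP1, 1 (MMP2) was called in EMX1-FL and 1 in EMX1-X1 against the vector control, where 2.42% and 2.5% of the 18574 tested genes were called. None of the 7 was called between EMX1-FL and EMX1-X1, where 1.42% of genes were. After adjustment edgeR called none of them, where it called 0.07% and 0.00538% of genes in the comparisons with the vector control and 0% between the isoforms. At an unadjusted p under 0.05 by edgeR there were 2, 3 and 0 members, where 1077, 1506 and 1418 of the 18574 tested genes were. DESeq2 gave an adjusted p under 0.05 to MMP2 and MMP10 in both comparisons with the vector control and to 0 members between the isoforms. Among all tested genes it did so for 173, 67 and 2. DESeq2 also called more genes overall after adjustment, 125, 48 and 1 against the 13, 1 and 0 of edgeR. In CPM, libraries did not overlap for 4, 3 and 1 of the 7 members, against 10.5%, 14.7% and 8.38% of all tested genes. MMP2, MMP10 and MMP14 were higher than the vector control in both groups. TIMP2 was lower in EMX1-FL (65.7 to 73.8 CPM) than in the vector control (79.2 to 104), though in TPM these overlapped. Between the isoforms the member was TIMP1, lower in EMX1-FL (2.13 to 2.26 CPM) than in EMX1-X1 (2.79 to 2.87). The median log2 fold change of the 7 was -0.02, 0.39 and -0.15, and that of all tested genes 0.04, 0.01 and 0.02. With 3 libraries a group, an exact two-sided permutation test cannot go below p = 0.1.

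The balance of MMP and TIMP transcripts is described by their summed TPM, without a test because the sum holds MMP1. The 7 MMPs summed to 41.9 ± 2.30 TPM in the vector control, 96.0 ± 10.2 in EMX1-FL and 76.2 ± 4.57 in EMX1-X1 (SD, n = 3). The TIMPs summed to 146 ± 15.5, 144 ± 8.83 and 137 ± 3.18 TPM. The ratio of TIMP to MMP transcripts was 3.51 ± 0.482 in the vector control, 1.51 ± 0.0863 in EMX1-FL and 1.80 ± 0.0710 in EMX1-X1, with no overlap between the groups. Without MMP1 the MMP sums were 28.2 ± 1.98, 51.5 ± 4.58 and 52.9 ± 6.49 TPM, so that EMX1-FL and EMX1-X1 then overlapped. MMP1 made up 32.6%, 46.2% and 30.8% of the MMP sum. MMP1 and MMP10 together made up 82.6%, 86.8% and 80.9%, and TIMP2 and TIMP3 together 96.3%, 96.0% and 94.6% of the TIMP sum.

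**Figure D3:**
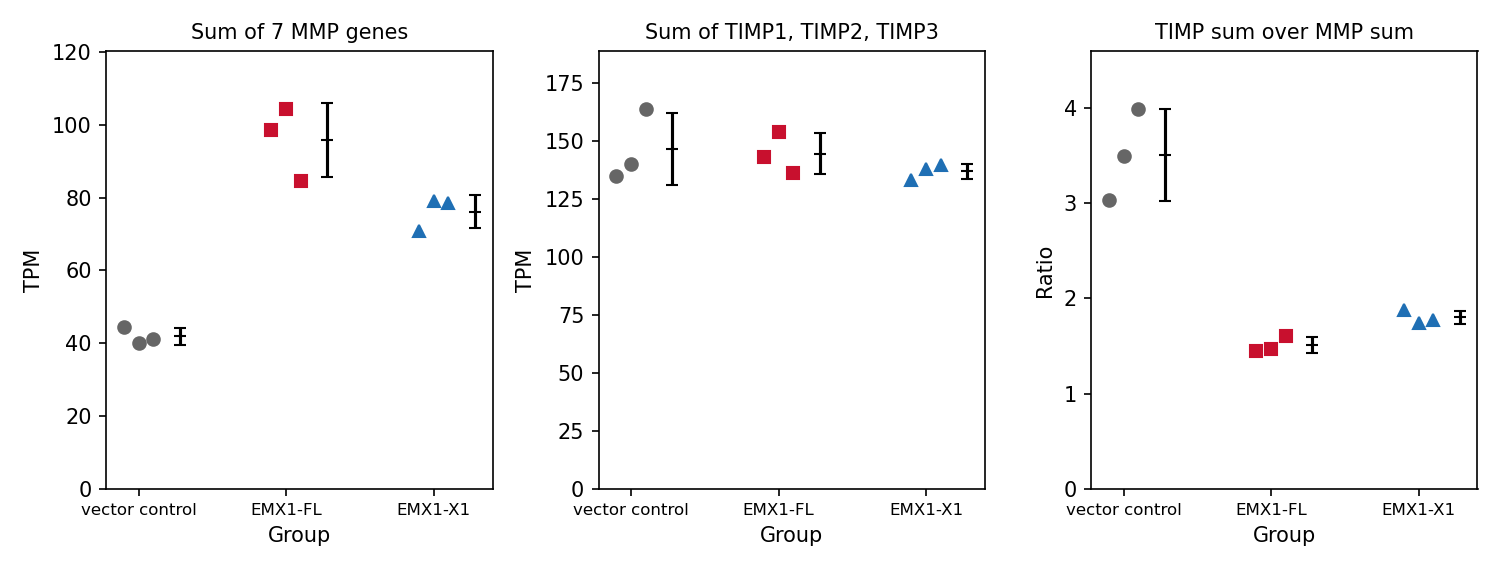
Summed TPM of the 7 MMPs, summed TPM of the TIMPs and the ratio of the TIMP sum to the MMP sum in each library, with the group mean and SD in black beside the points. The TIMP sums of the 3 groups overlap, whereas the ratio runs from 1.45 to 1.61 in EMX1-FL and from 1.75 to 1.88 in EMX1-X1, below the 3.04 to 4.0 of the vector control.

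MMP1 lies in a cluster of 9 listed MMP genes at chr11:102520508-102955732, 435.2 kb long. Only its neighbours MMP10 and MMP1, 9.29 kb apart, passed the filter. MMP7, MMP20, MMP27, MMP8, MMP3, MMP12 and MMP13 had 0 to 46 counts in all 9 libraries together. Beyond the MMPs, 12 tested genes start within 1 Mb of the MMP1 start, and 1 of the 12 was called in each comparison, where 2.42%, 2.5% and 1.42% of all tested genes were. These genes, named after their values were seen, were AP001830.1, with log2 fold changes of 1.33 (SE 0.57, adjusted p = 0.832) in EMX1-FL and 1.40 (SE 0.57, adjusted p = 0.575) in EMX1-X1, and BIRC3, an inhibitor of apoptosis, with 1.08 (SE 0.30, adjusted p = 0.611) in EMX1-FL against EMX1-X1 (edgeR). Log2 fold changes of the 12 ran from -0.18 to 1.33 in EMX1-FL and from -0.30 to 1.40 in EMX1-X1 against the vector control, and from -0.75 to 1.08 between the isoforms.

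The promoter tables of RefSeq (GRCh38.p14) held 4 of the 10 genes, MMP10, MMP14, TIMP1 and TIMP3. The 250 bases before the start are shown for MMP10, which stood above the controls in all overexpression libraries, and for TIMP3, the most abundant inhibitor, whose level overlapped between all groups. Capitals mark the TATA box letters TATAAA, and on either strand the GC box letters GGGCGG. The MMP10 window is chr11:102780629-102780878 on the minus strand and the TIMP3 window chr22:32801455-32801704 on the plus strand.
MMP10: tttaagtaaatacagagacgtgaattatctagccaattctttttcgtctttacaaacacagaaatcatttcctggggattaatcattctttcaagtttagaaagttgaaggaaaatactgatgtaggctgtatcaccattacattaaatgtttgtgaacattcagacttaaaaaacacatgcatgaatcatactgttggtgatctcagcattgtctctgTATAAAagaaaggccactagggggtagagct
TIMP3: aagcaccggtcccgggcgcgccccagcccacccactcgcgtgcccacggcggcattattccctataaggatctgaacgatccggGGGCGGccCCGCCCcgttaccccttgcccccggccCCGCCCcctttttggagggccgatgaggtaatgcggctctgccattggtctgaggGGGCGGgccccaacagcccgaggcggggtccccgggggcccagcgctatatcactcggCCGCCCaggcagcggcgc
The MMP10 window holds 1 TATAAA, with its first base at -31 from the start, and 34.4% G and C. The TIMP3 window holds 5 GGGCGG and 72.4% G and C, whereas the median of the 35116 promoters was 58.0%. Over the same 250 bases 10.7% of all promoters hold TATAAA and 42.6% hold GGGCGG, and the windows of TIMP1 and MMP14 hold 2 and 1 GC boxes. Neither of these windows holds TATAAA, and G and C make up 64.8% and 56.8% of them. MMP14, like MMP10, stood above the controls in all overexpression libraries. The AP-1 motif TGAGTCA, present in 4.2% of promoters, and the homeodomain motif TAATTA, present in 4.35%, were in none of the 4 windows on either strand. The motif matches are descriptions of letters only.

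The genes whose log2 CPM followed MMP1 most closely over the 9 libraries were EGFR (Pearson r = 0.975), TPD52L1 (0.972), SVIL (0.971), AC005606.2 (0.960) and EID2 (0.959), out of 18573 genes ranked. The points share 3 groups and their libraries, so these values rest largely on differences between groups and carry no test. EGFR, a receptor tyrosine kinase, held 13.4 to 15.5 CPM in the vector control, 20.8 to 22.8 in EMX1-X1 and 25.3 to 34.0 in EMX1-FL. This is the same order as MMP1, but the gene was picked for its likeness to MMP1, so the shared order is no separate result. EID2, the least variable of the 5, held 40.3 to 42.0, 43.7 to 48.4 and 50.4 to 60.0 CPM. Among the members MMP10 ranked 204th (r = 0.798) and MMP2 324th (0.749), while MMP14 (0.359), TIMP3 (0.155), TIMP1 (-0.00323), MMP9 (-0.347) and TIMP2 (-0.630) were further from it.

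**Figure D4:**
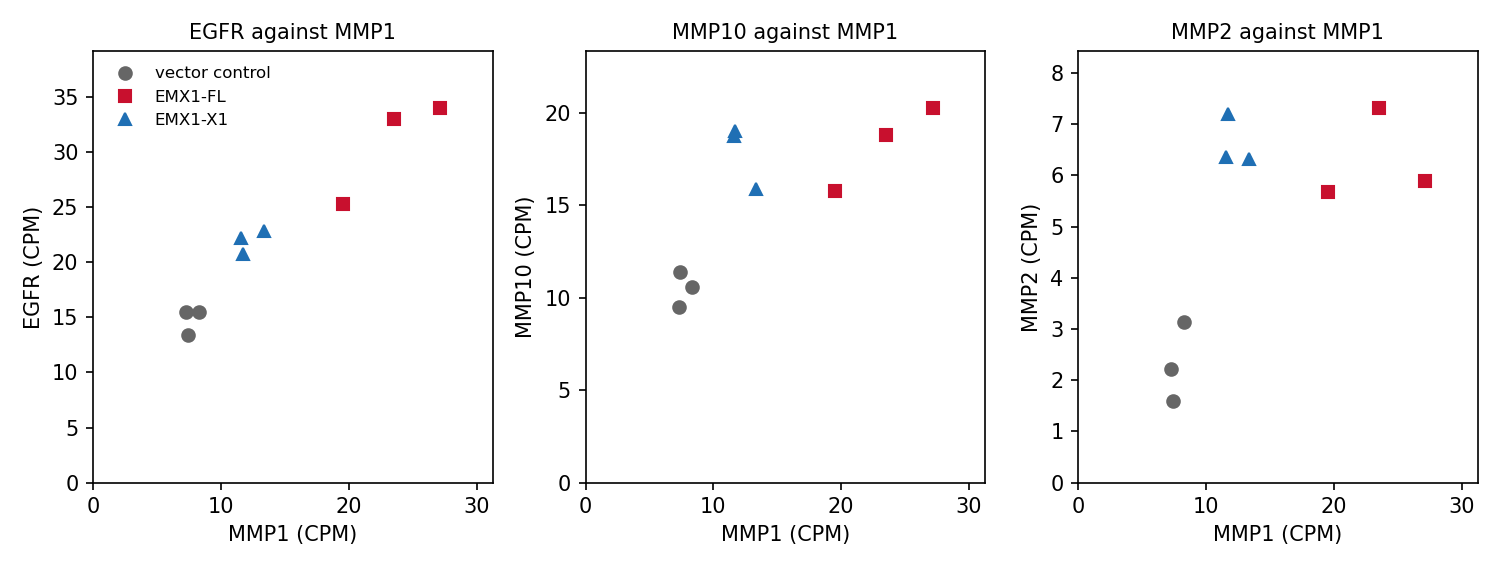
CPM of EGFR, MMP10 and MMP2 against CPM of MMP1 in the 9 libraries, with grey circles for the vector control, red squares for EMX1-FL and blue triangles for EMX1-X1. EGFR, picked for its likeness to MMP1, follows the 3 steps of MMP1. MMP10 and MMP2 in EMX1-X1 (15.9 to 19.0 and 6.32 to 7.19 CPM) lie at the level of EMX1-FL (15.8 to 20.3 and 5.68 to 7.32 CPM).

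Other genes of matrix proteolysis were taken from 5 lists of 89 genes, of which 64 were tested, and 6 were called in EMX1-FL, 7 in EMX1-X1 and 0 between the isoforms, all of them higher. Calls among all tested genes leaned the same way, with 379 higher and 71 lower in EMX1-FL and 363 higher and 101 lower in EMX1-X1. By edgeR none of the 64 had an adjusted p under 0.05. At an unadjusted p under 0.05 there were 14, 21 and 4, where 1077, 1506 and 1418 of the 18574 tested genes were. DESeq2 called 5, 1 and 0 with adjustment, where it called 125, 48 and 1 of all tested genes. Of 17 other MMPs and TIMP4, 8 were tested and none was called, with log2 fold changes from -0.76 to 0.58 in EMX1-FL and from -0.43 to 0.74 in EMX1-X1. Their median was 0.24 and 0.10, that of activators and inhibitors 0.31 and 0.48, of ADAM and ADAMTS proteases 0.32 and 0.30, of matrix substrates 0.26 and 0.51, and of AP-1, ETS and RUNX factors 0.15 and 0.26, beside 0.04 and 0.01 over all tested genes. The shares of all genes called were the 2.42%, 2.5% and 1.42% given above.

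Of 12 tested activators and inhibitors, 2 were called in EMX1-FL and 1 in EMX1-X1. TFPI2, a secreted inhibitor of serine proteases, had 80 to 115 counts in the vector control, 172 to 274 in EMX1-FL and 164 to 200 in EMX1-X1, with log2 fold changes of 1.13 (SE 0.23, adjusted p = 0.129) and 0.81 (SE 0.23, adjusted p = 0.469) by edgeR. PCSK5, a proprotein convertase, had 5 to 22, 16 to 37 and 23 to 41 counts, with log2 fold changes of 1.28 (SE 0.55, adjusted p = 0.828) and 1.37 (SE 0.54, adjusted p = 0.575). In EMX1-FL the PCSK5 difference was 2.06 in cluster A and -0.32 in cluster B on the log2 CPM scale. Of 19 tested ADAM and ADAMTS proteases, ADAMTS9, which cuts the proteoglycans aggrecan and versican, was called in both, at 1.16 (SE 0.23) and 1.12 (SE 0.23), with adjusted p = 0.0975 and 0.310 (edgeR). ADAMTS20 was called in EMX1-FL at 1.13 (SE 0.25, adjusted p = 0.163) and had 0.48 (SE 0.25, adjusted p = 0.635) in EMX1-X1.

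Of 11 tested matrix substrates, 1 was called in EMX1-FL and 2 in EMX1-X1. VCAN, the proteoglycan versican, was called in both, with 62 to 107 counts in the vector control, 151 to 309 in EMX1-FL and 157 to 226 in EMX1-X1, and log2 fold changes of 1.52 (SE 0.31, adjusted p = 0.129) and 1.06 (SE 0.31, adjusted p = 0.482) by edgeR. COL4A2, a chain of basement membrane collagen, had 0.97 (SE 0.34, adjusted p = 0.615) in EMX1-FL and was called in EMX1-X1 at 1.10 (SE 0.34, adjusted p = 0.494). Of 14 tested AP-1, ETS and RUNX factors, families known to bind MMP promoters, 1 was called in EMX1-FL and 3 in EMX1-X1. Positive log2 fold changes were found for 8 and 9 of the 14. FOS, named after its values were seen, was lower but not called, at -0.83 (SE 0.18, adjusted p = 0.163) and -0.48 (SE 0.18, adjusted p = 0.568) by edgeR. Its CPM did not overlap the vector control in either group, and DESeq2 gave it an adjusted p under 0.05 in EMX1-FL. ETS1 was called in both, at 1.14 (SE 0.29, adjusted p = 0.269) and 1.07 (SE 0.29, adjusted p = 0.457). RUNX1 was called in EMX1-X1 at 1.17 (SE 0.29, adjusted p = 0.397), as was JUNB at 1.03 (SE 0.43, adjusted p = 0.583). The JUNB difference in EMX1-X1 was 0.06 in cluster A and 1.24 in cluster B on the log2 CPM scale, and the part of the clusters in it was not tested.

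Among the cell type markers, ALB was called in both groups, at 1.46 (SE 0.45, adjusted p = 0.467) in EMX1-FL and 1.11 (SE 0.45, adjusted p = 0.576) in EMX1-X1 by edgeR, from 10 to 18 counts in the vector control. ZEB1, a repressor of epithelial genes, was called in EMX1-FL at 1.22 (SE 0.53, adjusted p = 0.837), and its 15 to 70 counts there overlapped the 13 to 34 of the controls. Its difference in EMX1-FL was 1.37 in cluster A and 0.27 in cluster B on the log2 CPM scale. It was the only one of the 5 mesenchymal markers called. VIM, the intermediate filament vimentin, had log2 fold changes of 0.08 (SE 0.18) in EMX1-FL and -0.23 (SE 0.18) in EMX1-X1, and ZEB2, a relative of ZEB1 with more counts in every group, had -0.12 (SE 0.24) and -0.44 (SE 0.24). FN1 (fibronectin) had 0.60 (SE 0.14) and 0.55 (SE 0.14), and CDH2 (N-cadherin) 0.58 (SE 0.22) and 0.48 (SE 0.22). The epithelial markers held no call. Whether these markers have a part in the MMP levels was not tested.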

How the data were processed

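RNA-seq libraries of SNU-398 cells, 3 for each of 3 groups named by the labels, were analysed. The count table that the authors deposited holds unnormalized read pairs for each gene name, made per the file header with featureCounts 2.0.1 (the submitters' processing notes name 2.0.6) from STAR alignments to GRCh38 with Ensembl 99, unstranded, whereas the paper's methods name RSEM. A second deposited table gives log2(TPM + 1), which matched values recomputed from counts and gene lengths within 4.98e-06.

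The 18574 genes that passed filterByExpr were fitted by edgeR 4.0.16 in R 4.3.3 (TMM, quasi-likelihood F test, all 9 libraries, group as the only term, Benjamini-Hochberg adjustment over all tested genes). Called means an unadjusted p below 0.05 and a log2 fold change of 1 or more in size, as in the study, and after adjustment an adjusted p below 0.05 with that fold. CPM used TMM-normalized library sizes. The members and lists were chosen with earlier results of these data known. Named were all members, EMX1, up to 4 called genes of each list with the smallest p per comparison, the MMP cluster genes and the 5 genes most correlated with MMP1. The fits were tested on simulated data. Alternatives were DESeq2 1.42.0, limma 3.58.1 on log2 TPM with pseudocounts of 1 and 0.1, other scaling and filters, the 6 libraries compared alone, a replicate block, the cluster as a covariate and each library left out. The zinc site was found by translating GENCODE 29 coding sequences with Biopython 1.88, and it occurred once in each MMP. Depth of 21562703 to 25197970 counts limits genes with few counts. Intervals and floors for single libraries cover counting error only. No replicate pair differed by as little as sampling noise (lowest chi-square per degree of freedom 6.87).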

Additional observations from a re-analysis of the deposited data

How the results depend on the processing

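The log2 fold changes of MMP1, MMP2 and MMP10 against the vector control kept their direction under all 18 alternatives planned. Those of MMP1 ran from 1.46 to 1.72 in EMX1-FL, 0.59 to 0.77 in EMX1-X1 and 0.81 to 1.05 between the isoforms. MMP2 ran from 1.16 to 1.71 in EMX1-FL (adjusted p 0.00033 to 0.379) and 1.23 to 1.78 in EMX1-X1 (adjusted p 0.000352 to 0.988), and was under an adjusted p of 0.05 in 3 alternatives for each: DESeq2, no filter on low counts, and the cluster as a covariate. MMP10 ran from 0.69 to 0.89 (adjusted p 0.0112 to 0.849) and 0.68 to 0.87 (adjusted p 0.0376 to 1), under an adjusted p of 0.05 by DESeq2 in both groups and with the cluster as a covariate in EMX1-FL.

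Members called stayed at 1 and 1 against the vector control. Between the isoforms the count ran from 0 to 1 with libraries left out, and was 1 (MMP9) without EMX1-FL replicate 1 (-1.59, unadjusted p = 0.0492 by edgeR) or without EMX1-X1 replicate 1 (-1.40, unadjusted p = 0.0462). Leaving MMP1 out brought the MMP sums to 28.2, 51.5 and 52.9 TPM. Small differences changed sign, and the cause was not tested. Against the vector control, TIMP1 in EMX1-FL was 0.0772 and 0.0949 by limma with pseudocounts of 1 and 0.1, and -0.27 to 0.233 with libraries left out (0.233 without vector control replicate 3). TIMP3 in EMX1-FL was 0.0813 and 0.0821 by limma, and -0.145 to 0.112 with libraries left out (0.112 without vector control replicate 3, 0.0898 without EMX1-FL replicate 3). MMP9 in EMX1-X1 was -0.161 with the cluster as a covariate and -0.0373 to 0.784 with libraries left out (-0.0373 without EMX1-X1 replicate 3). Between the isoforms, MMP2 was 0.0369 with the cluster as a covariate, and MMP10 was -0.059 to 0.127 with libraries left out (-0.059 without EMX1-FL replicate 2, -0.0431 without EMX1-X1 replicate 1).

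With group means removed, the mean correlation of same-numbered libraries was -0.135, 0.11 and -0.352. That of other-numbered libraries was 0.0743, -0.0596 and 0.164. Because the clusters fall on different numbers in each group, these values cannot show whether libraries of the same number shared a batch. With a replicate block, members called were 1, 1 and 0, list genes called 6, 6 and 0 against 6, 7 and 0, and all genes called 385, 407 and 208 against 450, 464 and 263. The count over all genes ran from 142 (limma, pseudocount 1) to 947 (no filter) in EMX1-FL, 177 to 962 in EMX1-X1 (the same alternatives) and 107 (limma) to 1108 (without EMX1-FL replicate 1) between the isoforms. It was 676 without EMX1-FL replicate 1 in EMX1-FL and 906 without EMX1-X1 replicate 1 in EMX1-X1. Depth limits MMP3, MMP9 and MMP13 most.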
